A study of Arabidopsis thaliana with 27 samples.

Results

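Stamens of the *opr3* mutant of *Arabidopsis thaliana* carried 161 probe sets, of 22810 on the array, whose signal was lower 22 h after either jasmonate or its precursor OPDA than in untreated stamens. They were selected on group means of log2(signal + 16). The mean at 22 h had to lie at least 0.8 below untreated after both treatments, JA at 22 h less than 1 below OPDA at 22 h, JA at 8 h less than 0.6 above OPDA at 8 h, and the mean untreated signal at 100 or more. Probe sets of ATA27, EXL5 and SWEET8 were left out by name. Of 300 probe sets that fell by that much after both treatments, 211 reached the untreated signal, 163 also met the limit on JA against OPDA at 22 h, and 161 remained without the genes left out. The limit at 8 h removed none, so the same 161 result without it.

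Jasmonates are lipid-derived hormones made through the octadecanoid pathway. In that pathway OPDA, a cyclopentenone, is reduced by OPR3 in the peroxisome and shortened by beta-oxidation to jasmonic acid. In stamens the hormone is known for driving filament elongation, anther opening and the last steps of pollen maturation, and *opr3* flowers are male sterile unless jasmonate is supplied. OPDA is also known to change transcript levels itself.

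The arrays were Affymetrix ATH1 arrays of stamen RNA, with MAS5 signal as the value. Every treated and untreated array was of *opr3*, so the mutation is shared by all of them. Flower buds at stage 12 received JA or OPDA at 0.03% and were taken at 0.5, 2, 8 and 22 h. The group titles say JA, while the treatment text names methyl jasmonate. Untreated *opr3* stamens had 3 arrays, and each treated group had 3 except JA at 0.5 h (2 distinct arrays) and OPDA at 8 h (2 arrays, replicates 1 and 3). Replicates 1 and 2 of JA at 0.5 h held identical values and were counted once. JA at 2 h replicate 3 is titled *opr2*, although its protocol names *opr3*, and was kept with its group. Wild-type Ws stamens, untreated and from stage 12 flowers, had 1 array. No mock-treated arrays are among the samples, so a change from untreated also holds the time since treatment. Whether replicates are separate plants is not stated, and the p-values reflect only the spread between these samples, which may be technical. The number of arrays limits the precision.

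All 161 probe sets passed the filter for testing, in which 2 or more arrays had to reach a signal of 50, as did 14028 of the whole array. The array annotation paired 79 of them with 1 gene each, 2 with several genes and 80 with none. All 79 genes were matched in RefSeq (assembly TAIR10.1), but few have a descriptive name there, and the others are given by locus with no role. Among the 161, 3 probe sets carry the suffix _s_at and 1 the suffix _x_at, which mark probes that can match further transcripts.

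The arrays were alike in overall brightness, with median signals from 47.5 to 56.9, but 2 arrays stood apart over the 161 probe sets. In untreated replicate 3 their median signal was 141.2, against 314.6 and 274.9 in replicates 1 and 2. It was the lowest of the 3 untreated arrays for 157 of the 161, where 41.3% of all tested probe sets were lowest on that array. In JA at 8 h replicate 1 the median was 189.4, against 86.2 and 100.8, and it was the highest of the 3 for 141 of the 161, against 34.9% of all tested. The 22 h arrays had medians between 45.8 and 98.2, lower than on every other array but JA at 8 h replicate 2.

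**Figure D1:**
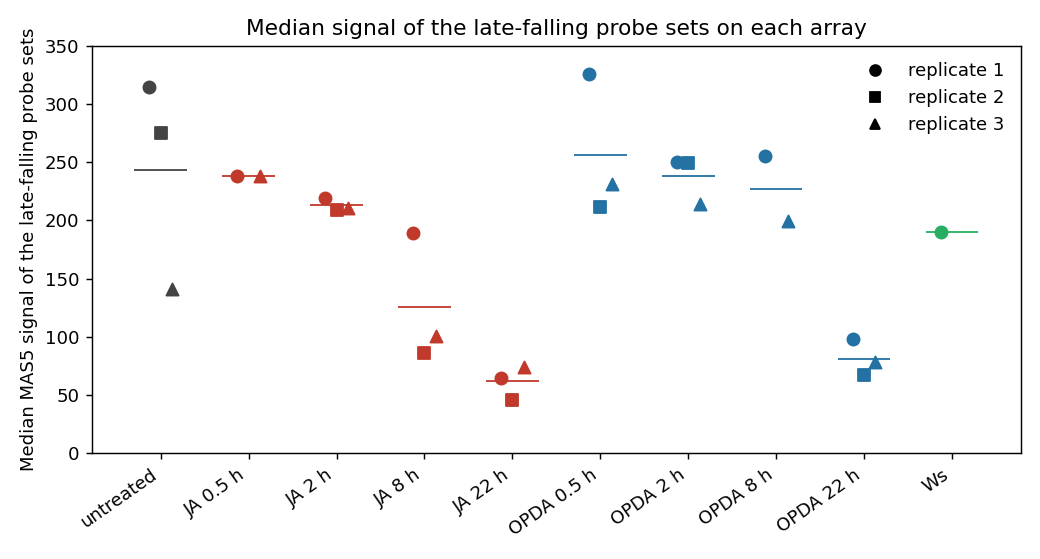
Median MAS5 signal of the 161 probe sets (vertical axis, linear) on each array, by group along the horizontal axis. Points are arrays, with the shape giving the replicate number, and lines are group means. The untreated arrays lie between 141.2 and 314.6, the JA 8 h arrays between 86.2 and 189.4, the OPDA 8 h arrays at 199.7 and 255.1, and all 22 h arrays at or below 98.2.

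At 22 h the falls, which the choice of members fixes, were of similar size after both treatments. The change from untreated had a median of -1.60 on the log2 scale after JA (range -3.69 to -0.82) and -1.27 after OPDA (range -3.38 to -0.80). In bulk stamens, fewer cells of a type and less RNA per cell cannot be told apart. By limma's test with Benjamini-Hochberg adjustment at 0.05, 159 were lower after JA, where 26.3% of all tested were, and 157 after OPDA, where 5.91% were. These counts follow from the choice and carry no further reading. The mean after JA was below that after OPDA for 125 of the 161 and above it for 36, with a median difference of -0.31. Of that difference, 19 were called lower after JA (12.2% of all tested) and 1 higher (6.5% of all tested). The rule cuts this difference off at -1, which removed 48 probe sets, so the counts cannot be read against those shares.

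The tetraspanin gene TET15 was among the brightest. Tetraspanins are membrane proteins that span the membrane 4 times and gather partner proteins into patches. TET15 signal was 1614, 1122 and 568 in the 3 untreated arrays, 230, 85.3 and 279.9 at 22 h after JA, and 314, 148 and 219 at 22 h after OPDA. All 22 h arrays lay below all untreated arrays, and the JA and OPDA arrays overlapped. At 8 h the signal was still 917, 409.8 and 571 after JA and 795 and 816 after OPDA, and every 8 h array lay above every 22 h array. A second tetraspanin gene, TET11, went from 516, 319.5 and 207 untreated to 168, 138 and 157 at 22 h after JA and to 158, 82.7 and 109.8 after OPDA. Its 22 h arrays also lay below every untreated array, and those of JA at 8 h (315, 221 and 242) overlapped the untreated ones.

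HCT encodes the hydroxycinnamoyl transferase that acts early in the phenylpropanoid pathway to lignin. Its signal was 1128, 1050.2 and 738 untreated, 320.3, 296.5 and 338 at 22 h after JA, and 477, 431 and 454 at 22 h after OPDA. The 3 sets of arrays did not overlap, and JA was the lowest. OPDA at 8 h (1057 and 971) lay within the untreated range, while JA at 8 h (945, 509 and 677) reached below it on 2 of 3 arrays. Of 8 phenylpropanoid and flavonoid genes named on the array, 5 were tested and HCT alone was a member. In that list, HCT included, 2 were called lower after JA at 22 h (26.3% of all tested) and 1 after OPDA (5.91% of all tested). The medians were -0.64 and -0.47, against -0.21 and -0.09 over all tested probe sets. HCT was chosen for its falls, so nothing is read from these values about the list.

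The member PWD (AT4G24450), with ATGWD2 as a synonym, is 1 of 2 loci to which RefSeq gives this symbol. Glucan water dikinases phosphorylate starch and so open it to breakdown. It was among the smallest falls. Its signal was 167, 143 and 100.3 untreated, 73.4, 63.6 and 70.3 at 22 h after JA, and 94.1, 38.4 and 83.1 after OPDA, with no overlap with the untreated arrays. SBT5.4, a subtilisin-like protease gene, fell from 168, 96.9 and 46.5 to 33.9, 35.1 and 33.0 after JA and to 26.9, 35.4 and 25.9 after OPDA. AT1G59740, listed as NPF4.3 of the nitrate and peptide transporter family, fell from 328, 303 and 159 to 40.9, 4.7 and 43.2 after JA and to 83.1, 50.6 and 54.5 after OPDA. For both genes each 22 h array was below each untreated array, and untreated replicate 3 was the lowest of its group.

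Among members with a gene, the deepest mean fall over both treatments was that of AT5G17340, at -2.90 after JA and -3.22 after OPDA. Its signal was 605, 354 and 87.4 untreated, 25.8, 20.1 and 21.5 at 22 h after JA, and 23.0, 11.5 and 11.3 after OPDA. The 22 h arrays lay close together and far below the untreated ones, of which replicate 3 was the lowest. Of the members with a gene, AT4G37900 followed with -3.01 after either compound and AT1G66850 with -3.33 and -2.40. AT1G66850 was the brightest member, at 5922.5, 6268 and 3182 untreated, 815, 149 and 831 at 22 h after JA, and 1376, 782 and 709 after OPDA. The range of the 161 in mean untreated signal was 100.1 to 5124, with 19 at 1000 or more and 65 under 200.

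Further deep falls were those of AT2G03740 (-3.06 after JA and -2.58 after OPDA), AT1G20120 (-2.87 and -2.53), AT5G44400 (-2.68 and -2.37), AT1G06260 (-2.76 and -2.26) and AT1G33430 (-2.53 and -2.38). AT3G50570 (-1.88 and -2.70), AT2G03850 (-2.02 and -2.26), AT4G10260 (-1.84 and -2.30) and AT2G28680 (-1.77 and -2.01) had larger mean falls after OPDA than after JA. AT5G03620, the second brightest of the members with a gene at a mean of 1202 in untreated stamens, had -2.29 and -1.82. In all, 29 members, 15 of them paired with a gene, had a mean fall of at least 2.

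**Figure D2:**
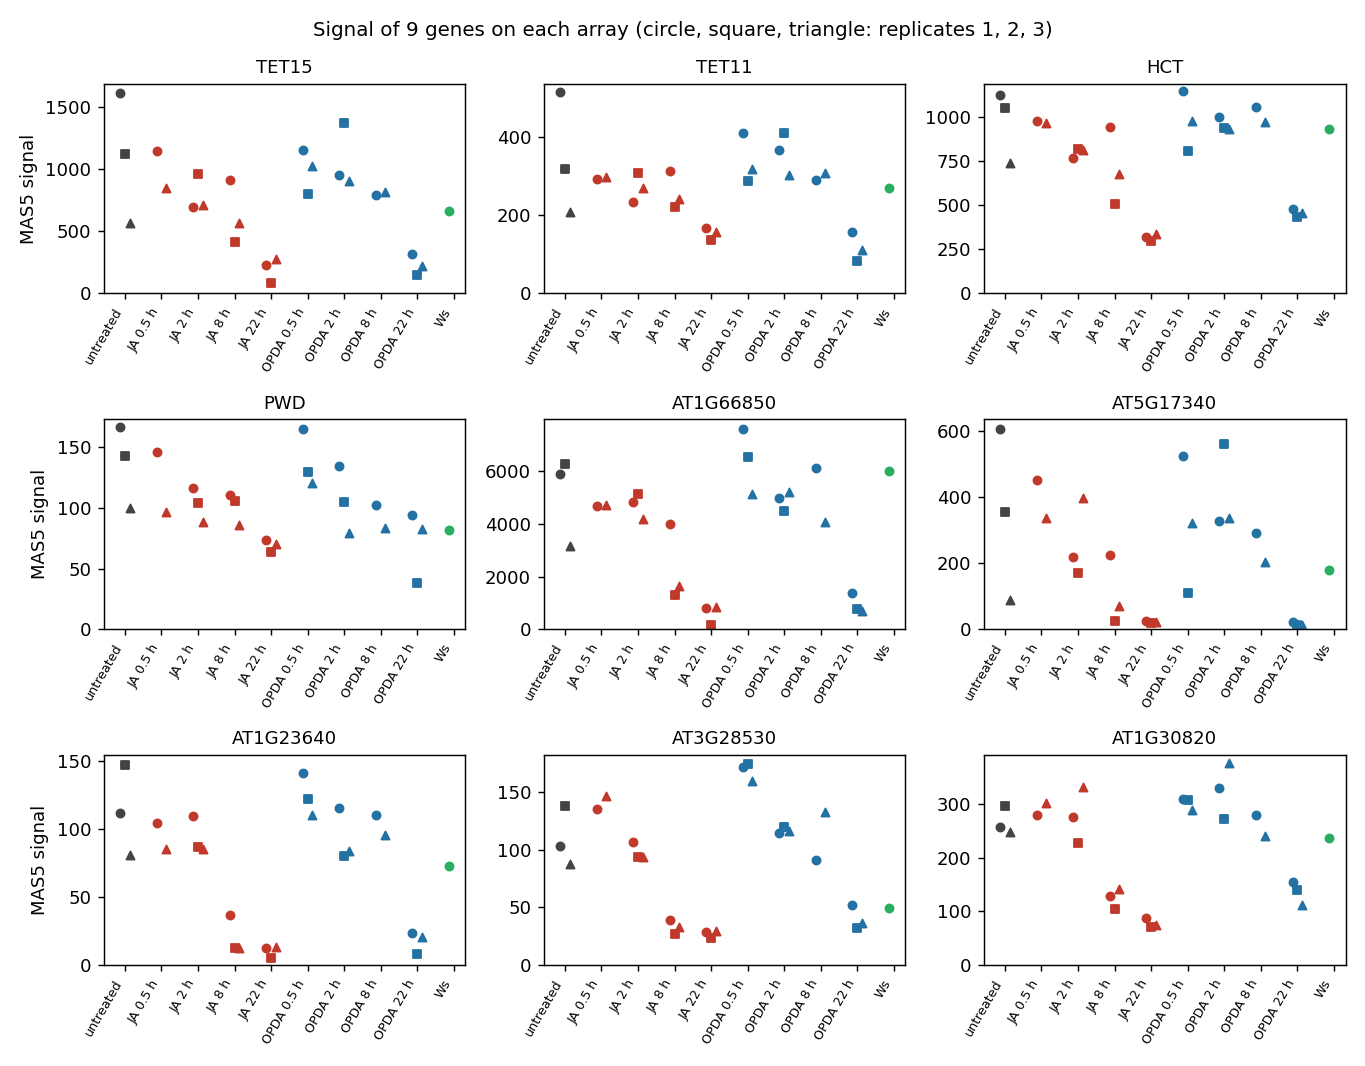
MAS5 signal (vertical axes, linear from 0) of 9 member genes on each array, by group along the horizontal axes. TET15, TET11, HCT and PWD keep most of their signal at 8 h after JA, while AT1G23640, AT3G28530 and AT1G30820 have already dropped there. After OPDA at 8 h the 3 genes overlap their 2 h arrays.

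The rule drew its lines through a continuous set of values. Just inside the limit on the fall were AT1G23330 (-0.80 after OPDA), AT4G14780 (-0.82 after JA) and PWD (-0.82 after JA), and just outside were AT5G09570, NTL and AT2G31110 (each between -0.80 and -0.79 after OPDA). AT1G32250 (-0.998) was just inside the limit on JA against OPDA, and AT5G38070 (-1.02) and AT1G23580 (-1.04) just outside. At the signal limit, AT5G47330 was inside at 100.1 and SPL outside at 99.7. A further 87 probe sets failed the signal limit alone.

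The untreated arrays entered every fall above, and untreated replicate 3 stood apart over these probe sets. Set against the 2 h arrays of the same treatment instead, all 161 were still lower at 22 h after both JA (median -1.43) and OPDA (median -1.22). Of these, 151 were called after JA (21.2% of all tested) and 146 after OPDA (6.19% of all tested), which the choice through the 22 h arrays still favours. When the rule was applied without replicate 1 of every group, 137 probe sets met it. In the replicate 1 arrays left out, 112 of them (81.8%) lay at least 0.8 below untreated after both treatments, against 3.64% of all tested. Without replicate 2, 131 met the rule and 128 (97.7%) fell by as much in the replicate 2 arrays, against 5.04%. Without replicate 3, 306 met the rule and 39 (12.7%) fell by as much in the replicate 3 arrays, against 0.855%. Of the 306, 237 were below untreated after both treatments, a count for which no share over all tested was computed. The median change of the 306 in those arrays was -0.47 after JA and -0.39 after OPDA, against -0.12 and -0.05 over all tested. In the replicate 3 arrays most of the 306 did not fall by 0.8 after both treatments, and the direction count is given without a reading.

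Whether the fall had begun by 8 h was compared within each treatment, between 8 h and 2 h, with no untreated or 22 h array in the contrast. After JA, 41 of the 161 (25.5%) were lower at 8 h than at 2 h by limma's test with Benjamini-Hochberg adjustment, against 3.06% of all tested probe sets, and none was higher (2.17% of all tested). The median change was -0.67, against -0.05 over all tested. Of the 161, 152 had a negative change, a count given without its share over all tested. After OPDA no member was called in either direction, and neither was any of the 14028 (0%). No member had an unadjusted p under 0.05 there, against 561 of all tested. The median change after OPDA was -0.04 with a median 95% interval of 0.67 to either side for a single member, which leaves room for falls of moderate size.

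Mean falls of at least 1 from 2 h to 8 h were seen in 40 members after JA (1.28% of all tested) and in 0 after OPDA (0.107% of all tested). All JA 8 h arrays lay below all JA 2 h arrays for 66 members, against 12.1% of all tested. The corresponding count for OPDA was 21, against 11% of all tested. All 22 h arrays lay below all 8 h arrays for 93 members after JA (20.3% of all tested) and for 154 after OPDA (23.3% of all tested), a contrast that the choice through the 22 h arrays favours. Of the change from 2 h to 22 h, a median of 44.0% was present by 8 h after JA and 2.94% after OPDA. At least 50% was present by 8 h for 64 members after JA and for 1, AT1G05577, after OPDA.

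Leaving out 1 array moved the JA count from 14, without JA 8 h replicate 2, to 66, without JA 8 h replicate 1, the array with the highest member signal in its group. The count was 19, 27 and 24 without JA 2 h replicates 1, 2 and 3 and 22 without JA 8 h replicate 3. Of the 41 calls, 14 held in all 25 fits that left out 1 array each. Within single scan days, as the array records give them, the median change of the members after JA was -0.99 and -0.77 on the 2 days that held both times, with 1 array for each time. After OPDA it was -0.11 on the 1 such day. With scan day as a block, which drops OPDA at 8 h replicate 1 for want of a record, the JA count was 58. All replicate 3 arrays were scanned on 1 day and come from 1 chip lot. With the replicate number as a block, the JA count was 61.

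The strongest call was AT3G28530. Its signal was 106.6, 93.8 and 93.6 at 2 h after JA and 38.8, 26.8 and 33.1 at 8 h, with no overlap. After OPDA it was 115, 119 and 117 at 2 h and 91.3 and 132 at 8 h, which overlapped. The JA change of -1.23 ± 0.16 (SE) had an adjusted p of 2e-05 (limma, Benjamini-Hochberg) and was called in every fit that left out an array. Its probe set is the one with the _x_at suffix, so the signal may include other transcripts.

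AT1G30820 went from 276, 228 and 332.5 at 2 h after JA to 128, 105 and 142 at 8 h, a change of -1.06 ± 0.15 (SE; adjusted p = 6.5e-05, limma, Benjamini-Hochberg). After OPDA it went from 331, 273 and 376 to 279.3 and 240.0, again with overlap between the times. By 22 h after JA it stood at 87.3, 70.4 and 74.5. AT1G23640 dropped from 109.8, 86.4 and 85.3 to 36.9, 12.8 and 12.7 after JA (-1.63 ± 0.23 SE, adjusted p = 9.2e-05, limma, Benjamini-Hochberg). After OPDA it was 115, 80.0 and 83.6 at 2 h and 110.0 and 95.7 at 8 h, and only the 22 h arrays (23.6, 8.4 and 20.3) were low. AT1G23330 fell by 0.95 on the log2 scale after JA, with all 8 h arrays (167, 91.1 and 132) below all 2 h arrays (285, 244 and 254).

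Of the members with a named role, TET15, HCT, TET11, PWD and SBT5.4 were not called at 8 h after JA. SBT5.4 read 72.8, 66.4 and 113.2 at 2 h after JA and 81.7, 33.1 and 59.2 at 8 h, with overlap. From 2 h to 8 h after JA the change was -0.37 for TET15, -0.21 for HCT, -0.06 for TET11 and -0.03 for PWD, with adjusted p-values of 0.69, 0.61, 0.94 and 0.97 by limma with Benjamini-Hochberg adjustment. Whether they differ from the members called was not tested. AT1G59740, the NPF4.3 gene, was called at 8 h after JA (-1.66, adjusted p = 0.0062, limma, Benjamini-Hochberg), but not without JA 8 h replicate 2. Its arrays were 260, 209 and 254 at 2 h and 134, 31.8 and 57.6 at 8 h.

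Members were further divided by whether at least 50% of the JA change from 2 h to 22 h was present at 8 h, a division made on the JA values and given without a test. The 64 early members had a median JA change by 8 h of -0.95 and the 97 later members one of -0.39. From 2 h to 8 h after OPDA, which the division did not use, the medians were 0.07 and -0.15, against -0.02 over all tested. A negative change was seen in 25 of 64 and 64 of 97, with no share over all tested given. The final falls from untreated had medians of -1.57 and -1.68 after JA and -1.17 and -1.29 after OPDA.

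**Figure D3:**
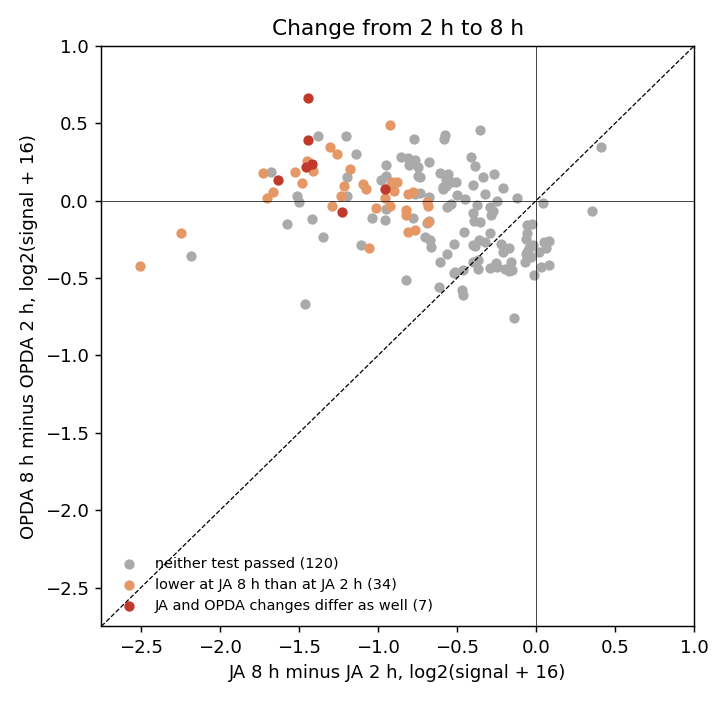
Change from 2 h to 8 h in log2(signal + 16) after JA (horizontal axis) and after OPDA (vertical axis) for the 161 probe sets. The dashed line marks equal change, and colours mark the 41 called lower after JA, of which 7 also had a called difference between the treatments. Most points lie left of the vertical zero line and near the horizontal one.

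The difference between the treatments in the change from 2 h to 8 h was tested directly, as a contrast added after the 8 h values had been seen. It was called for 7 members (4.35%), all with a more negative change after JA, against 0.763% of all tested probe sets in that direction and 0.784% in the other. The median difference was -0.67, against -0.03 over all tested. Of the 161, 126 were negative, again without a share over all tested. An unadjusted p under 0.05 was found for 51 members, against 1733 of the 14028 tested. The median 95% interval of the difference was 0.89 to either side, so the members not called are not shown to respond alike. The 7 were AT1G23640 (-1.77 ± 0.35 SE), AT3G28530 (-1.15 ± 0.23 SE), AT1G23330 (-1.03 ± 0.24 SE), AT1G06250, AT2G31100 and the probe sets 254188_at and 261392_at, which no gene is paired with. The count ranged from 2, without OPDA 8 h replicate 3, to 24, without JA 8 h replicate 1. It was 3 without OPDA 8 h replicate 1 or OPDA 2 h replicate 2, and 4 without JA 2 h replicate 1 or 3 or JA 8 h replicate 2. Only 254188_at was called in all 25 fits. Its signal was 151, 158 and 152 at 2 h and 53.3, 32.7 and 56.5 at 8 h after JA, and 147, 116 and 158 at 2 h and 194 and 181 at 8 h after OPDA.

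Averaged over both treatments, 4 members were lower at 8 h than at 2 h (limma, Benjamini-Hochberg; 0.535% of all tested) and none was higher (0.991% of all tested). They were AT1G30820 (-0.68 ± 0.11 SE), AT3G28530 (-0.65 ± 0.12 SE), AT5G55970 (-0.48 ± 0.10 SE) and AT1G23640 (-0.75 ± 0.18 SE). AT1G30820 was called in each of the 25 fits. The count was 16 without JA 8 h replicate 1 and 2 without either OPDA 8 h array. AT5G55970 read 128, 116 and 127 at 2 h after JA and 69.6, 66.3 and 62.2 at 8 h, already at its 22 h level of 60.9, 66.6 and 51.2.

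The JA and OPDA arrays at 8 h also differed directly, by a median of -0.77 over the members, and 44 were called lower after JA (4.11% of all tested). The rule put a limit on that contrast, so the value is a description, although the limit removed no probe set.

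Over the comparisons before 8 h, 1 member was called in total. From 0.5 h to 2 h after JA it was called lower (0.143% of all tested) and none was called higher (1.02% of all tested), with a median change of -0.16. The probe set was 247579_at, with no gene paired, at 152 and 201 at 0.5 h and 85.2, 70.2 and 97.3 at 2 h (-0.94, adjusted p = 0.043, limma, Benjamini-Hochberg). The call was made in 9 of the 25 fits that left out an array, and it was lost on leaving out any single one of the 5 arrays compared. From 0.5 h to 2 h after OPDA, limma called none in either direction, neither among members nor overall (0%). An unadjusted p under 0.05 was found there for 1 member, against 409 of all tested. Between JA and OPDA limma called no member at 2 h (0.321% of all tested lower and 1.58% higher) or at 0.5 h (0% and 0.0713%). At an unadjusted p under 0.05 there were 4 members at 2 h and 0 at 0.5 h, against 1415 and 316 of all tested. The median difference at 2 h was -0.15, with a median 95% interval of 0.60 to either side.

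Markers of mature pollen, none of which is a member, were higher at 22 h. The summed signal of 9 tested genes was 2560.5 to 3519 in untreated stamens, 3142, 7194 and 3124 in replicates 1, 2 and 3 at 8 h after JA, 2049 to 2463 at 8 h after OPDA, 7109 to 12774 at 22 h after JA and 4859 to 10195 at 22 h after OPDA. Of the 9, 8 were called higher at 22 h after JA and 6 after OPDA by limma, and none was called lower after either. The shares of all tested called higher at 22 h are not given here. The median changes of the 9 were 1.40 after JA and 1.47 after OPDA, against -0.21 and -0.09 over all tested. At 8 h against 2 h after JA limma called 0 of the 9, with a median change of 0.62. An unadjusted p under 0.05 was found there for 2 of them, against 2350 of the 14028 tested. At 8 h after JA replicate 2 alone lay above the untreated range, and it is the array without which the members' count at 8 h is lowest. Untreated replicate 3 had the highest sum of its group, 3519, and the lowest member signal. JA 8 h replicates 1 and 3 had nearly equal sums, 3142 and 3124, but median member signals of 189.4 and 100.8. ADPG1, a polygalacturonase gene known for anther opening and the one endothecium and secondary wall gene found on the array, read 98.7 to 224 untreated, 833 to 1592 at 8 h after JA, 159 to 170.4 at 8 h after OPDA, 1299 to 1816 at 22 h after JA and 344 to 457 at 22 h after OPDA. The part of these markers in the falls was not tested. Of the tapetum and pollen coat list, 1 gene (AMS) was named on the array, and it did not pass the filter, with a summed signal of 1.2 to 52.7 over all arrays.

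Of 28 gene lists covering cell type markers and pathways, only phenylpropanoids and flavonoids held a member, HCT. Leaf photosynthesis, cell wall, sugar transport, dehydrin, cell cycle and transcription factor lists were among those that held 0, as was starch and sucrose, where 4 genes other than PWD were tested. Of those 4, 3 were called lower (26.3% of all tested) and 1 higher at 22 h after JA. After OPDA none was called lower (5.91% of all tested) or higher. Most list genes had no named probe set, so these counts describe only the genes that did. ATA27, EXL5 and SWEET8 were left out by name, so none of them could count as a member of any list.

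Members lay next to each other in a few places. In the gene order of TAIR10.1, 9 of the 79 member genes had another member within 5 protein-coding genes. AT1G06250 and AT1G06260 were adjacent, AT5G63060 and AT5G63070 were 2 apart, and 5 members (AT1G23600, AT1G23610, AT1G23640, AT1G23670 and AT1G23690) sat in a run of 17 protein-coding genes from AT1G23520 to AT1G23690. The ends of the run were set by hand around genes that fell, and no share over other genes was computed for these neighbour counts. In that run 13 genes had a paired probe set. A further 4 (AT1G23520, AT1G23570, AT1G23580 and AT1G23590) lay at least 0.8 below untreated at 22 h after both treatments and failed only the limit on JA against OPDA. AT1G23520, for example, averaged 462 untreated, 38.3 at 22 h after JA and 159 at 22 h after OPDA. Their places in the run do not show whether neighbouring copies share probe signal, which was not tested.

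At 8 h after JA, AT1G23600 read 70.0 ± 37.4 against 203 ± 38.8 at 2 h, and AT1G23610 read 51.2 ± 19.7 against 146 ± 31.9 (SD, n = 3). AT1G23640, AT1G23600, AT1G23610 and AT1G23670 were called lower at 8 h than at 2 h after JA and AT1G23690 was not (-0.80, adjusted p = 0.20, limma, Benjamini-Hochberg). A second probe set of AT1G23640 averaged 33.8 in untreated stamens, under the signal limit, and fell by 1.27 after JA and 1.33 after OPDA. AT1G23560 in the same run went the opposite way after JA, from 91.5 ± 49.9 untreated to 262 ± 53.3 at 22 h, and averaged 16.9 at 22 h after OPDA.

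**Figure D4:**
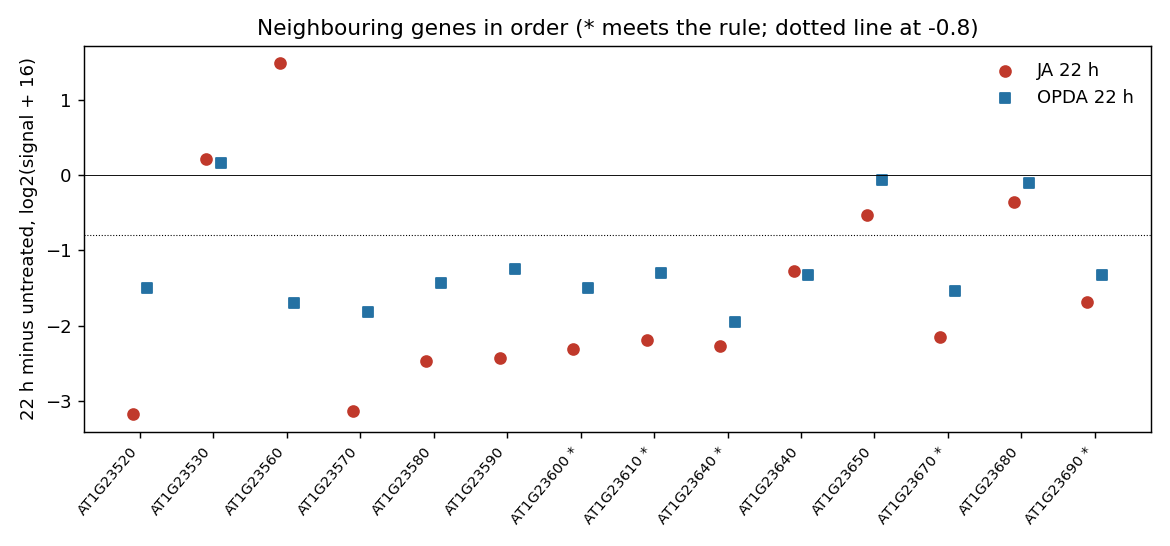
Change at 22 h from untreated in log2(signal + 16) (vertical axis) for each probe set paired with a gene of the run from AT1G23520 to AT1G23690, in gene order along the horizontal axis. Stars mark the 5 members. AT1G23560 is up after JA and down after OPDA, and AT1G23530, AT1G23650 and AT1G23680, which were dim on every array, lie nearest to zero after OPDA.

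In the wild type, most members read somewhat lower than in *opr3* stamens 0.5 h after OPDA. How far this exceeded all tested probe sets depended on the early arrays used. With 1 Ws array there is no test, and it was set against OPDA at 0.5 h, whose arrays did not choose the members. The median difference was -0.41, against -0.14 over all tested probe sets, and 124 of the 161 were below 0, where 66.2% of all tested were. At least 2-fold lower were 7 members (1.53% of all tested) and at least 2-fold higher were 2 (5.55% of all tested). Without OPDA 0.5 h replicate 1 the 2-fold higher count was 8, and without replicate 2 or replicate 3 it was 0. Without replicate 2 the 2-fold lower count was 11. Without replicate 1, 108 members were below 0, where 63.6% of all tested were. With OPDA at 2 h as the early group, 109 were below 0, where 65.8% of all tested were. The median difference from OPDA at 2 h was -0.29, against -0.14 over all tested. In both settings the members lay near the share over all tested. Ws lay above both 22 h means for 157 members, and for 31 it was nearer to the 22 h level than to OPDA at 0.5 h. Members were chosen for low 22 h means, which favours both counts, so nothing is read from them. The mature pollen sum of the Ws array was 7004, higher than in any *opr3* array up to 2 h.

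Among members with a gene, AT3G28530 was the lowest in Ws relative to OPDA at 0.5 h, at 49.7 against 172, 174.5 and 159 (-1.49). AT1G58170 followed at 53.8 against 177, 150.4 and 154 (-1.33), then AT1G26610 at 249.5 against 514, 545 and 561.5 (-1.07) and AT1G23610 at 84.3 against 189.7, 182 and 160.2 (-0.94). The highest was AT5G44400, at 278 in Ws against 301.5, 80.6 and 73.5, so Ws lay inside the range of the OPDA arrays. AT5G51890 read 1371 in Ws against 1158, 617 and 716, above all of them. AT4G27435 (429 against 453, 184 and 252) and AT1G20120 (428 against 547, 226 and 235) were inside the range. TET15 read 661 in Ws and HCT 932, both far above their 22 h arrays, which the choice for low 22 h means favours.

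**Figure D5:**
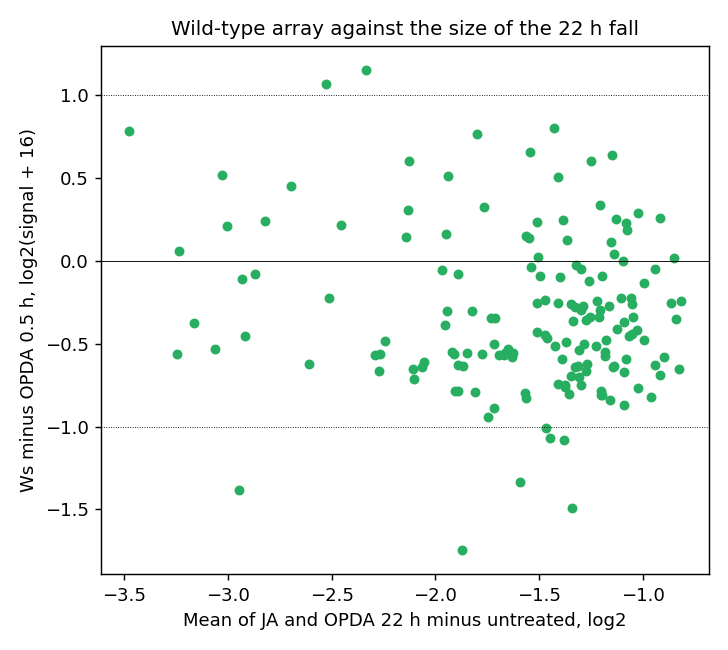
Difference of the Ws array from the OPDA 0.5 h mean (vertical axis, log2) against the mean fall at 22 h (horizontal axis, log2) for the 161 probe sets. Dotted lines mark 2-fold. Points lie below zero for 124 of the 161.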

How the data were processed

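Per the labels and the submitters' processing notes, the authors deposited MAS5 signal intensity for each probe set, globally scaled to a target value of 125. From it log2(signal + 16) was computed. Over 25 *opr3* arrays in 9 groups, 14028 probe sets (signal reaching 50 on 2 or more arrays) entered a single limma 3.58.1 model in R 4.3.3 with an intensity trend and 16 residual degrees of freedom. Tests were two-sided, with Benjamini-Hochberg adjustment per comparison and calls under 0.05. The fit was checked on simulated data with noise independent between arrays, so the check does not cover deviations shared by same-numbered arrays. The 161 members and the gene lists were chosen with earlier results of these data known. Named genes were the 20 deepest falls, the smallest p-values among calls, members on lists, the extremes in Ws, those nearest the limits and the 6 brightest. The other genes were named after their values were seen. Gene names came from the platform annotation, updated through RefSeq. Alternatives changed the pseudocount, filter, scaling, samples, blocks and arrays left out. The single Ws array was outside the fit. Software versions of the authors' processing are not given in the sources used here.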

Additional observations from a re-analysis of the deposited data

Results flagged for a closer look

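For 7 members the change from 2 h to 8 h after JA differed from that after OPDA in limma's test of the difference itself, with Benjamini-Hochberg adjustment over all tested probe sets. The difference, JA minus OPDA on the log2 scale, was -1.83 for probe set 254188_at, -1.77 for AT1G23640, -1.15 for AT3G28530, -1.66 for probe set 261392_at, -1.03 for AT1G23330, -2.10 for AT1G06250 and -1.67 for AT2G31100. AT1G06250 had the largest difference, with 305, 192 and 257.5 at 2 h and 138, 60.7 and 60.7 at 8 h after JA, and 267, 107.1 and 276 at 2 h and 364 and 293 at 8 h after OPDA. Its OPDA 2 h replicate 2 was below the others, and the call was lost without it and without 6 other arrays. AT2G31100 read 94.4, 28.4 and 36.8 at 8 h after JA and 207 and 157 at 8 h after OPDA, and its call was lost without the same 7 arrays.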

How the results depend on the processing

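The members numbered 117 with both falls at 1 or more, 122 with a pseudocount of 64 and 177 with a pseudocount of 1, the other settings lying between, and 125 to 267 with 1 array left out, the highest without untreated replicate 3. The count lower at 8 h after JA was 24 with only the compared groups and 25 with a 2-fold minimum added, and 14 to 66 with 1 array left out. The count averaged over both treatments was 2 with a mean signal of at least 100, with only the compared groups or with chip lot as a block, 0 with a 2-fold minimum added, and 2 to 16 with 1 array left out. The count for the JA and OPDA difference in change was 4 with only the compared groups or chip lot as a block, and 2 to 24 with 1 array left out. The 1 call from 0.5 h to 2 h after JA was 0 with a pseudocount of 1, no filter, quantile normalization, scaling to the 75th percentile, median centring, chip lot as a block or a 2-fold minimum, and 0 to 1 with 1 array left out. The 0 calls between JA and OPDA at 2 h became 1 with a pseudocount of 64 or scan day as a block, and 0 to 1 with 1 array left out. The share of members that fell in the replicate left out of the choice was 12.7% to 97.7%. The Ws median ran from -0.50 to -0.28 with 1 OPDA 0.5 h array left out. The cause of these shifts was not tested.

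Deviations from the group means correlated above 0.1 in 77 of 93 same-numbered pairs of arrays and in 23 of 184 differently numbered pairs, and 22 of 25 arrays correlated best with one of their own number. This is a hint from the data that numbers share something. The array records also name set 1 for every replicate 1 array with a record. They name set 2 for the replicate 2 arrays other than those at 0.5 h, and no set for replicate 3. What a set shares is not stated and not every pair passed, so the main fit did not take the numbers as pairing. With the replicate number as a block the counts were 61 lower at 8 h after JA, 19 averaged over the treatments, 22 for the difference in change and 1 between JA and OPDA at 2 h, and no other call count moved.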
